A study of Mus musculus with 23 samples.

Results

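A group of 10 genes that act on stored maternal mRNA was described in mouse oocytes, zygotes and 2-cell embryos that had or lacked maternal Cxxc1. The 10 members were the entries named Zar1, Zar1l, Cpeb1, Dazl, Ybx2, Lsm14b, Patl2, Eif4e1b, Eif4enif1 and Pabpc1l among the 24506 entries of the deposited FPKM table, and each name matched 1 entry. The rule that picks them uses their names and no measured value, though the list was drawn up with earlier results of these data known. All 10 passed the filter on low values that left 13776 genes for testing. FPKM is a fragment count divided by transcript length and by the mapped total of a library, so levels of different genes can be set in order within a library.

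The study asked what loss of CFP1, the protein made from Cxxc1, does to the RNA of oocytes and embryos. CFP1 is a subunit of the complexes that trimethylate lysine 4 of histone H3, and its zinc finger binds unmethylated CG dinucleotides. RNA sequencing gave 23 libraries in 8 groups, with 3 libraries in each group except wild-type 2-cell embryos, which had 2. The labels do not say how many animals a library holds or whether the replicates are different animals. Any p-value therefore covers just the spread seen among these libraries, and part or all of it may be technical.

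The first pair of groups held germinal vesicle (GV) oocytes, which rest in meiotic prophase, from 3-week wild-type females and from 3-week Cxxc1 fl/fl females carrying Zp3-Cre. Zp3-Cre deletes in growing oocytes. GV oocytes of the second pair came from 3-month females, either wild type or Cxxc1 fl/fl with Gdf9-Cre, which is active from an earlier follicle stage. Age is thus the same within a pair, but age and Cre line cannot be told apart between the pairs. Zygotes and 2-cell embryos had either wild-type mothers or Cxxc1 fl/fl;Zp3-Cre mothers, and fathers were wild type throughout, so embryos of deletion mothers carried an intact paternal allele. The ages of these mothers are not in the labels.

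A fully grown oocyte transcribes little and lives on mRNA made during growth. Much of this mRNA is held silent in ribonucleoprotein particles with a short poly(A) tail, and is later translated when the tail is lengthened in the cytoplasm, or removed when maternal RNA is cleared. Sequence-specific binders such as CPEB1 and DAZL select the mRNA, Y-box, LSM14 and PAT1 family proteins package it, and proteins at the cap and at the tail set whether ribosomes are recruited.

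RefSeq promoter windows, from 250 bases before to 50 bases after a start on build GRCm38.p6, were found for 9 of the 10 genes, with 4 starts for Eif4enif1 and 2 for Ybx2. Eif4e1b had none. They are shown for their CG dinucleotides, to which CFP1 binds; the number differed widely among the 9 genes. Zar1l had 3 in 300 bases, Pabpc1l 7, Patl2 10, Zar1 17, Dazl 28, Cpeb1 33 and Lsm14b 40, while Ybx2 had 40 and 32 at its starts and Eif4enif1 27 to 46. The median of all 32851 windows was 7, and 90% of them held at most 31. Printed are the windows of Zar1 and its relative Zar1l, of Lsm14b, which was among the genes richest in CG, and of Patl2, whose level fell in deletion oocytes. Capitals mark CG dinucleotides and all are written 5′ to 3′ on the strand of the gene. Zar1 lies at chr5:72581035-72581334 on the minus strand, Zar1l at chr5:150518110-150518409 on the minus strand, Lsm14b at chr2:180024737-180025036 on the plus strand and Patl2 at chr2:122186140-122186439 on the minus strand.
Zar1: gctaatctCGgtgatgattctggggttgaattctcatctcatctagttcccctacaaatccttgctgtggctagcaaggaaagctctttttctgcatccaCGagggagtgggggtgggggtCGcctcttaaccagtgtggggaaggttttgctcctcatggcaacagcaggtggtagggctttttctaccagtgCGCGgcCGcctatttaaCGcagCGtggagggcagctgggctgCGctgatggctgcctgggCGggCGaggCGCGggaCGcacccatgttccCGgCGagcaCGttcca
Zar1l: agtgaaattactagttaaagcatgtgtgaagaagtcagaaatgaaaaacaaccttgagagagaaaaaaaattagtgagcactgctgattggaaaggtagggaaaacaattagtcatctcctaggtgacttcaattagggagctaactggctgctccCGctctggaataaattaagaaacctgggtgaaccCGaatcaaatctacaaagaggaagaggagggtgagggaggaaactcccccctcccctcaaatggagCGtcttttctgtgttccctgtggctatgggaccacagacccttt
Lsm14b: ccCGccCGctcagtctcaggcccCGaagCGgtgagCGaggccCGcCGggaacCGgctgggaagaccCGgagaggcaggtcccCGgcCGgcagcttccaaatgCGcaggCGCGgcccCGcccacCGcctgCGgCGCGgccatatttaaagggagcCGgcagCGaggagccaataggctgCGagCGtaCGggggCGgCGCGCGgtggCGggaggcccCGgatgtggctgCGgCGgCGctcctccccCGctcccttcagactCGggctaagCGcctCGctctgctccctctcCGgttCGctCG
Patl2: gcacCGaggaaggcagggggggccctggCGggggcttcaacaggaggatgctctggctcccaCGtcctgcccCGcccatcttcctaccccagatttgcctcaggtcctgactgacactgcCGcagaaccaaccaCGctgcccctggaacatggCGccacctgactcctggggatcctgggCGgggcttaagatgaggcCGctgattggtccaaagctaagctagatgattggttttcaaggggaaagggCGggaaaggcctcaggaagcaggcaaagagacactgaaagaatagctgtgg
The letters of 3 short motifs were searched on both strands of every window. The E-box CANNTG occurred in 72.3% of all windows and at least once in 1 or more windows of each of the 9 genes. CCAAT occurred in 37.4% of all windows and in at least 1 window of every one of the 9 genes except Cpeb1 and Zar1, with 2 matches in that of Patl2 and in 1 of those of Ybx2. TATAAA occurred in 13.6% of all windows and, among the 9 genes, in that of Cpeb1. Dependence of any value below on these letters was not tested.

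**Figure D1:**
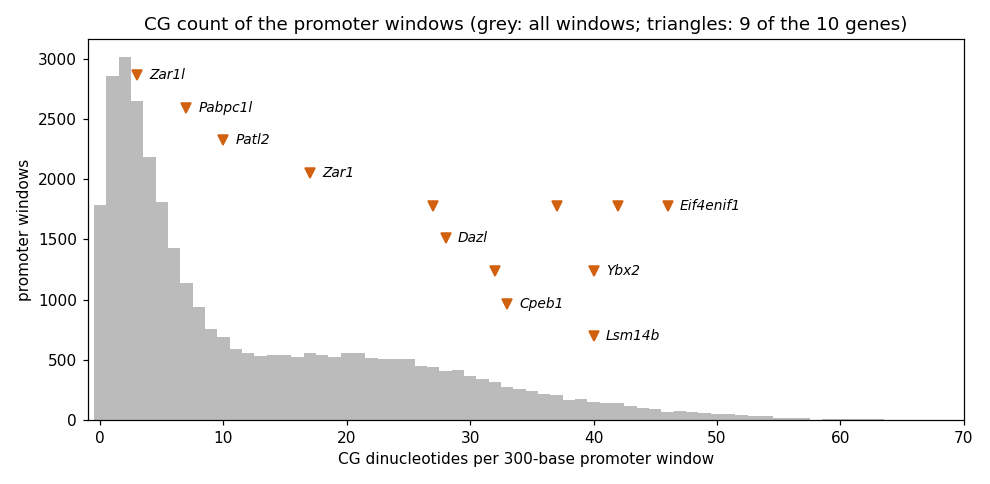
Number of CG dinucleotides in 300-base promoter windows (x axis) against the number of windows with that count (y axis). Grey bars are all 32851 windows; orange triangles, placed at arbitrary heights, are the windows of 9 of the 10 genes, which run from 3 in Zar1l to 46 at 1 start of Eif4enif1.

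FPKM does not give the depth of a library. The size of the smallest steps between low values put relative depth between 0.509 and 1.49 times that of the first 3-week wild-type library, and 8663 to 12333 genes per library reached an FPKM of 1. Cxxc1 FPKM fell from 39.8 ± 1.82 to 1.13 ± 0.315 in 3-week GV oocytes, from 36.7 ± 1.53 to 0.924 ± 0.205 in 3-month ones, from 28.0 ± 3.49 to 1.34 ± 0.250 in zygotes (SD, n = 3 each) and from 10.5 (n = 2) to 1.98 ± 1.90 (n = 3) in 2-cell embryos. The oocyte genes Gdf9, Bmp15, Zp1 to Zp3, Nlrp5, Ooep, Figla, Nobox and Mos were all detected in every GV group. Library 3 of the deletion 2-cell embryos stood apart, with summed stromal markers at 196 FPKM against 3.86 and 4.45 in libraries 1 and 2, and granulosa or cumulus markers at 156 against 26.1 and 23.5. In 3-month GV oocytes the 17 granulosa or cumulus markers summed to 94.3 to 176 FPKM in Gdf9-Cre libraries and 38.7 to 41.5 in wild-type ones, and 9 of the 13 tested were called higher. The part of these other cells in the values below was not tested. Leaving out deletion library 3 bears on the 2-cell embryos alone. Every Gdf9-Cre library had the higher marker sum, so leaving out 1 of them cannot remove that difference.

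Wild-type GV oocytes held all 10 mRNAs, at levels that spanned from 1541 FPKM for Zar1 to 31.1 for Patl2 at 3 weeks. Zar1 ranked 10 or 11 among all entries of the 3-week libraries, and Eif4e1b 26 to 28. Below them came Ybx2 and Lsm14b, whose libraries overlapped, then Cpeb1, Eif4enif1, Zar1l, Pabpc1l, Dazl and Patl2, each without overlap with the next. Together the 10 genes made up 1.16% ± 0.0122 of the summed FPKM at 3 weeks and 1.15% ± 0.0226 at 3 months. No member was called between the ages by limma after Benjamini-Hochberg adjustment over all 13776 genes at 0.05, the threshold for every call, against a background of 2.25% higher and 1.70% lower. At an unadjusted p under 0.05 the count was 1, Dazl, at 62.4, 65.7 and 59.3 FPKM at 3 weeks and 85.5, 86.0 and 77.7 at 3 months (log2 fold change 0.40, SE 0.15, adjusted p = 0.155), and fits on those 6 libraries alone, with array weights or after quantile normalization called 4, 3 and 1 members. Calls over all genes were 544 as deposited and 2482, 3246 and 550 in those fits.

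Most of the 10 mRNAs fell in wild-type embryos, in 2 steps at which different genes fell most. From 3-week GV oocytes to zygotes 1 member rose and 8 fell, against 19.4% and 50.7% of all genes, with a median log2 fold change of -1.77 against -0.47 over all genes. From zygotes to 2-cell embryos 1 rose and 8 fell, against 44.5% and 24.0%, with medians of -0.87 and 0.31. The medians over all genes include many low genes. With a minimum FPKM of 5 in 3 libraries they were -0.85 at the first step and 0.21 at the second. Their summed share of FPKM was 0.733% ± 0.0112 in zygotes (SD, n = 3) and 0.260% and 0.291% in the 2-cell libraries. After median-of-ratios scaling 3 rose and 5 fell at the first step, and after quantile normalization 1 rose and 6 fell at the second. All genes called were 9693 and 10179 in those fits, with 48.5% and 43.4% of them higher. Zar1l, Cpeb1, Pabpc1l and Ybx2 had their steepest fall at the first step and Zar1, Lsm14b and Dazl at the second, as deposited and under both other scalings. On the log2(FPKM + 1) scale Patl2 fell more at the first step as deposited and more at the second under both other scalings. Its means were 31.1, 5.05 and 0.617 FPKM in 3-week oocytes, zygotes and 2-cell embryos, so by ratio of means the second fall was larger as deposited too. The added 1 shrinks the log2 fold change where values lie below 1 FPKM. Zar1 kept 46.6% of its oocyte mean after the first step and 4.30% of its zygote mean after the second.

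Embryos of deletion mothers lost less at the second step. From deletion GV oocytes to deletion zygotes 3 members rose and 6 fell, against 21.9% and 43.0% of all genes (medians -0.82 and -0.27). From deletion zygotes to deletion 2-cell embryos 3 rose and 2 fell, against 32.7% and 17.3% (medians 0.16 and 0.22). The 2 that fell were Zar1 and Lsm14b. After median-of-ratios scaling 4 rose and 5 fell at the first of these steps and 3 rose and 3 fell at the second. All genes called were then 8923 and 6547, with 48.7% and 58.8% of them higher, against 33.7% and 65.5% as deposited. Zygote libraries served in both steps and in the deletion comparison of that stage, so these results are not independent of each other.

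**Figure D2:**
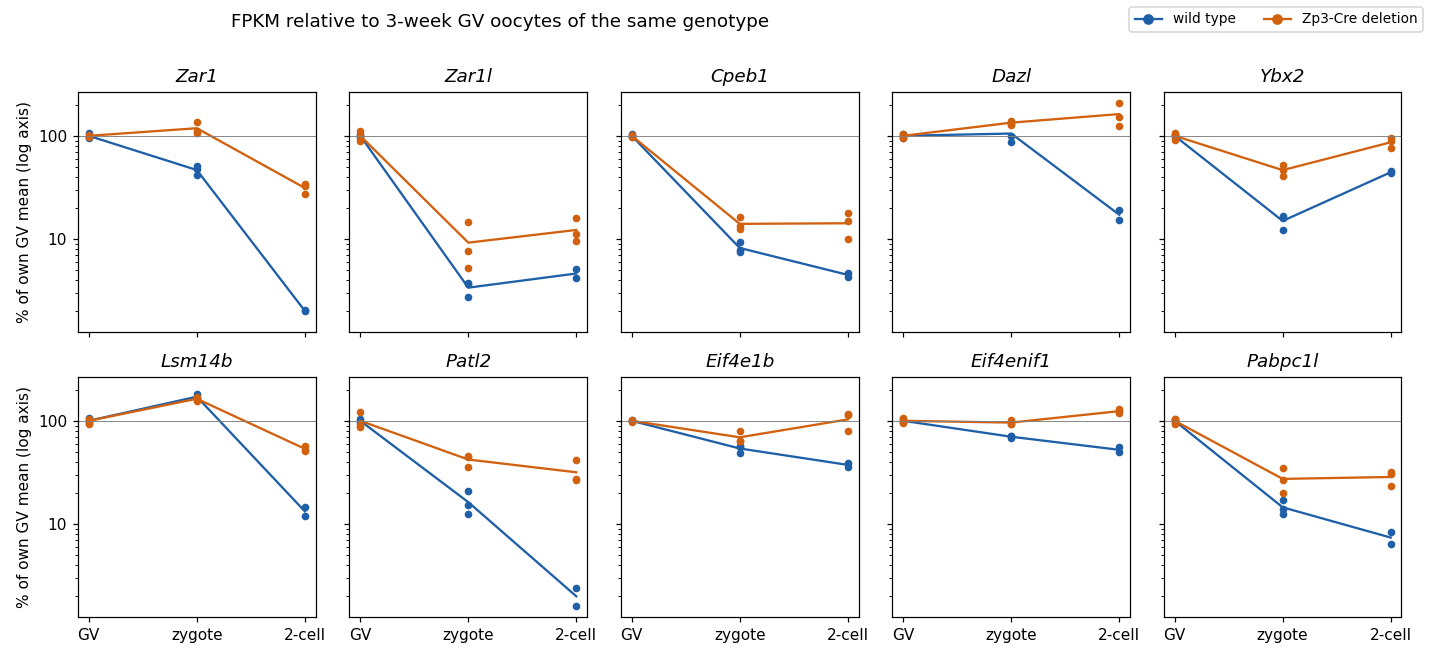
FPKM as a percent of the mean of 3-week GV oocytes of the same genotype (y axis, log scale) at 3 stages (x axis). Points are libraries and lines join group means, blue for wild type and orange for Zp3-Cre deletion. In wild-type 2-cell embryos Zar1 and Patl2 sit lowest, and in deletion 2-cell embryos all 10 genes sit above the wild-type line; the orange lines start from deletion oocytes, where Eif4e1b, Patl2, Ybx2 and Zar1 were already lower.

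Members called in deletion oocytes were all lower as deposited, and those called in deletion embryos were higher except Eif4e1b in zygotes. In 3-week GV oocytes 0 members were higher and 4 lower, against 18.3% and 11.3% of all genes (medians -0.27 and 0.093). In 3-month GV oocytes 0 were higher and 5 lower, against 34.2% and 15.2% (medians -0.28 and 0.20). Zygotes of deletion mothers had 7 members higher and 1 lower, against 35.3% and 11.4% (medians 0.46 and 0.22), but after median-of-ratios scaling 3 were higher and 3 lower and the members' median turned to -0.091. Of the 6850 genes called in zygotes under that scaling 40.9% were higher, against 75.6% of the 6431 as deposited. In 2-cell embryos 10 of 10 were higher and 0 lower, against 37.1% and 29.4% (medians 1.60 and 0.16), and 8 were higher and 0 lower under either other scaling. All genes called there were 9053 by median of ratios and 9286 by quantiles, with 45.6% and 56.1% of them higher. Without deletion library 3 all 10 were still called higher in 2-cell embryos. With a minimum FPKM of 5 in 3 libraries the medians of all genes were 0.096 in 3-week oocytes and 0.17 in 3-month oocytes. They were 0.34 in zygotes and 0.34 in 2-cell embryos. Of the 2-cell calls over all genes 64.7% were higher under that filter, against 55.8% under the main one. A fit on the compared groups alone called 5 higher and 1 lower in zygotes and 8 higher and 0 lower in 2-cell embryos. Calls over all genes were then 6125 and 6771, against 6431 and 9159 in the fit on all libraries. For those 8 in 2-cell embryos the highest adjusted p over all alternatives ran from 4.66e-04 for Zar1 to 0.0212 for Zar1l. FPKM is relative to the library total, and in such bulk libraries fewer cells of a type and less RNA per cell cannot be told apart.

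The other scalings, by median of ratios and by quantiles, centre the libraries and moved the median of all genes by -0.26 and -0.29 in zygotes, -0.18 and -0.22 in 3-month oocytes, -0.20 and 0.022 in 2-cell embryos, 0.44 and 0.55 from wild-type GV oocytes to zygotes, and -0.21 and -0.53 from there to 2-cell embryos. The share of higher genes among all calls was 75.6% in zygotes as deposited, 40.9% and 44.6% under them. Those shares were 69.2%, 47.7% and 46.6% in 3-month oocytes, 61.8%, 45.2% and 48.2% in 3-week oocytes, and 55.8%, 45.6% and 56.1% in 2-cell embryos. Among the steps they were 27.7%, 48.5% and 54.0% from wild-type oocytes to zygotes and 65.0%, 54.3% and 43.4% from there to 2-cell embryos.

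Oocyte marker genes outside the set were also higher in embryos of deletion mothers. Of the 10 oocyte markers, 0 were higher and 4 lower in 3-week deletion oocytes, 2 higher and 4 lower in 3-month ones, 9 higher and 0 lower in zygotes, and 10 higher and 0 lower in 2-cell embryos; after median-of-ratios scaling 7 were higher and 0 lower in zygotes. Their summed FPKM was 1378 to 1446 in wild-type zygotes and 2741 to 3454 in those of deletion mothers, and 358 to 383 and 1596 to 1971 in 2-cell embryos. All 8 genes of a list switched on in wild-type 2-cell embryos, among them Zscan4c and Zfp352, were lower in deletion 2-cell embryos, with summed FPKM of 204 and 254 in wild-type and 19.0 to 36.2 in deletion libraries. The part of this difference in embryo state in the members' values was not tested.

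**Figure D3:**
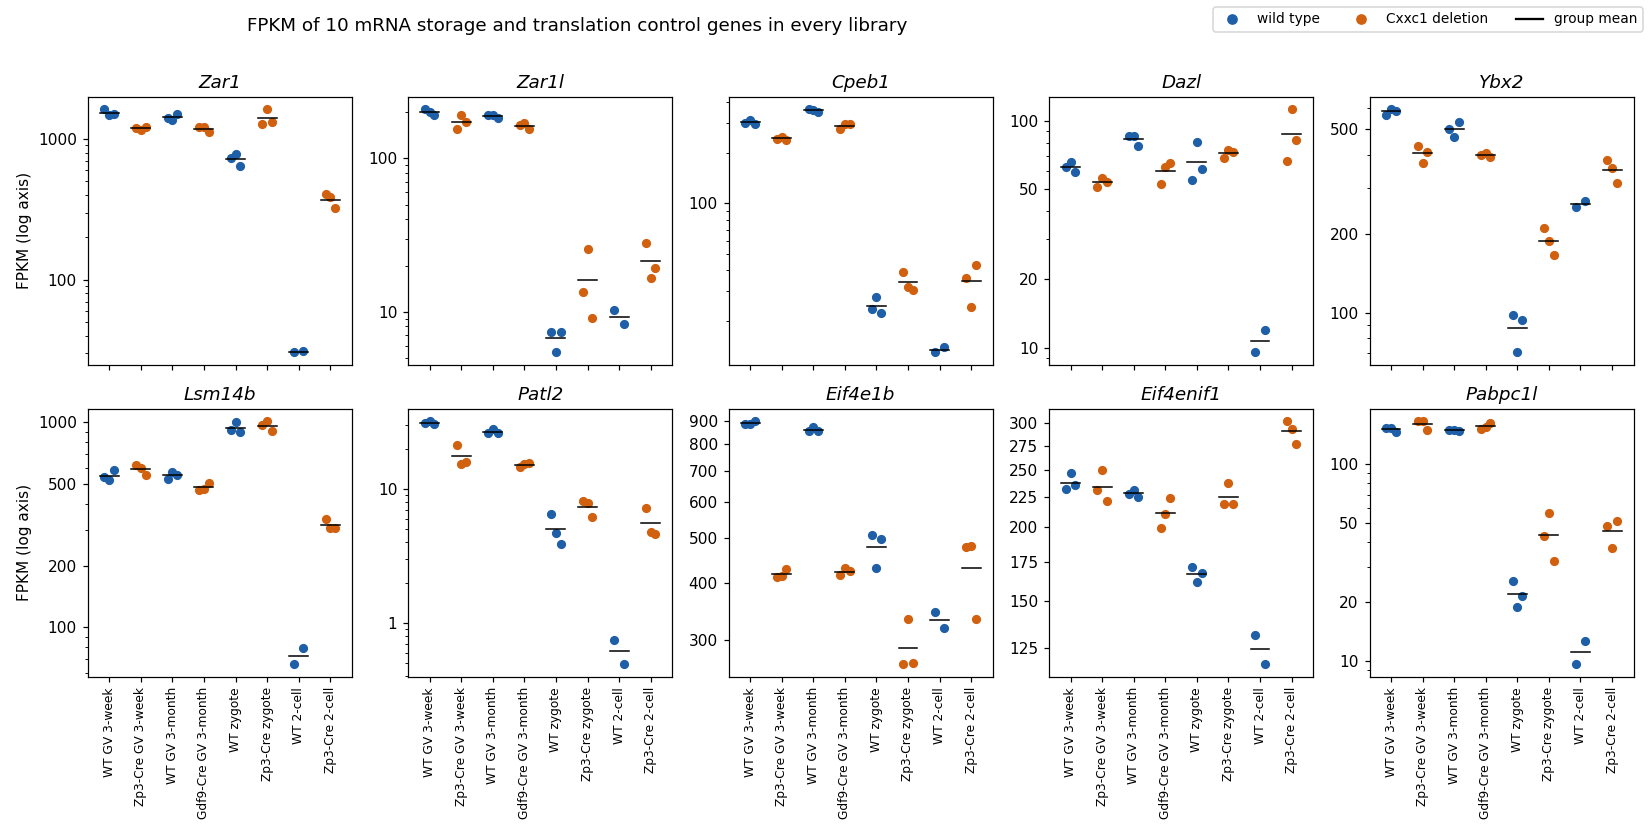
FPKM (y axes, log scale, each gene with its own range) of the 10 genes in all 23 libraries of 8 groups (x axis). Points are libraries, blue for wild type and orange for Cxxc1 deletion, and bars are group means. Eif4e1b is lower in every deletion GV and zygote library than in any wild-type library of that stage, and Zar1, Dazl, Lsm14b and Patl2 have their lowest points in wild-type 2-cell embryos.

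**Figure D4:**
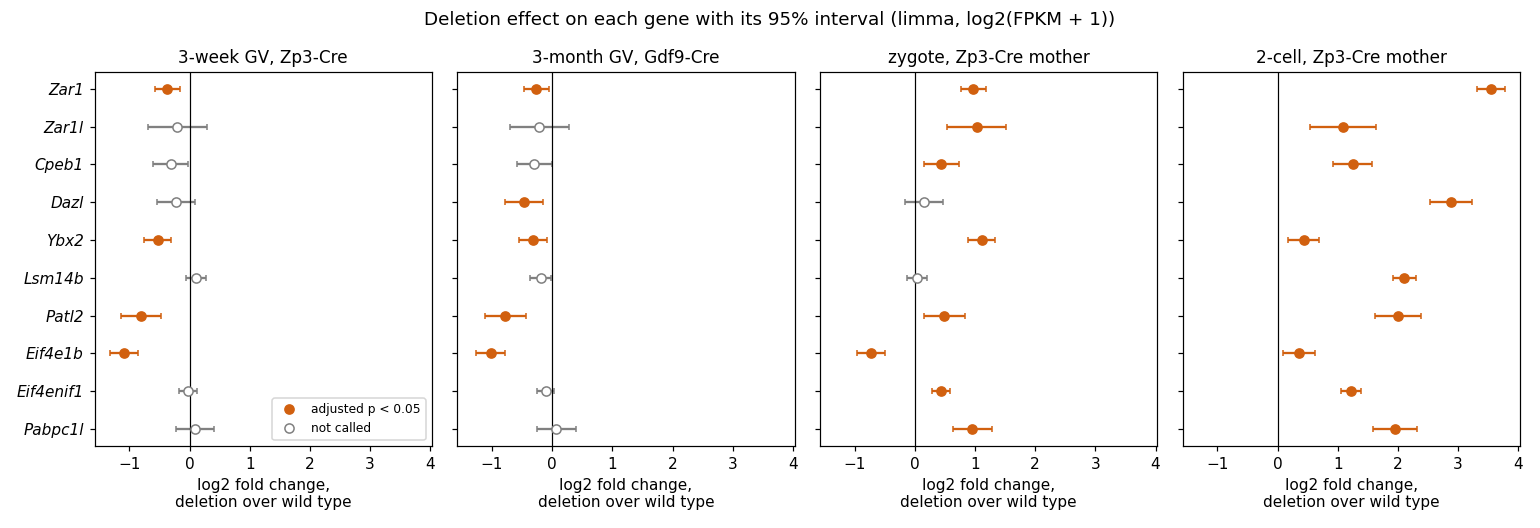
Log2 fold change of the deletion over its own wild-type group (x axes) for each gene (y axis) with 95% intervals, in 4 panels. Filled orange points passed an adjusted p of 0.05 in limma and open grey points did not. In oocytes no called point lies above 0 as deposited, and in 2-cell embryos all 10 do; after median-of-ratios scaling the zygote points of Cpeb1, Dazl, Eif4enif1, Lsm14b and Patl2 fall below 0, and after quantile normalization the 2-cell points of Ybx2 and Eif4e1b and the zygote points of Dazl and Patl2 do.

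Zar1, zygote arrest 1, is a maternal-effect gene whose RNA-binding protein gathers and protects stored mRNA, and Zar1l encodes its close relative. Deletion oocytes had less Zar1, and embryos of deletion mothers had more of it, reaching 1204% of the wild-type mean at the 2-cell stage. In 3-week GV oocytes Zar1 stood at 1623, 1484 and 1516 FPKM in wild-type libraries and 1199, 1154 and 1223 in deletion libraries (log2 fold change -0.37, SE 0.0992, adjusted p = 0.00833). At 3 months the values were 1405, 1365 and 1501 in wild-type and 1218, 1215 and 1117 in Gdf9-Cre oocytes (log2 fold change -0.27, SE 0.0992, adjusted p = 0.0320). Neither pair of groups overlapped. The 3-week call was lost after quantile normalization (adjusted p = 0.0791, 2.50e-04 to 0.0791 over all alternatives). The 3-month call was lost without a filter on low values (adjusted p = 0.0607), without wild-type library 1 or 3 (adjusted p = 0.0598 and 0.113) and without Gdf9-Cre library 2 or 3 (0.0502 and 0.111, 0.00126 to 0.113 over all alternatives).

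In zygotes Zar1 read 729, 779.6 and 644 FPKM with wild-type mothers and 1283, 1631 and 1324 with deletion mothers (log2 fold change 0.97, SE 0.0992, adjusted p = 9.41e-08). Every deletion zygote library lay above every wild-type one, and the gene stayed called higher under median-of-ratios scaling at 0.36 and after quantile normalization at 1.13. Wild-type zygotes kept 46.6% of the mean level of 3-week GV oocytes (log2 fold change -1.10, SE 0.0992, adjusted p = 3.85e-09), a fall that was -0.20 and not called under median-of-ratios scaling (adjusted p = 0.154, 8.05e-12 to 0.154 over all alternatives). Deletion zygotes held 118% of the level of deletion oocytes (log2 fold change 0.24, SE 0.0992, adjusted p = 0.0432), a rise lost after quantile normalization (adjusted p = 0.342), without any 1 of the 3 deletion GV libraries (adjusted p = 0.0589 to 0.110) or without deletion zygote library 2 (0.268, 7.67e-05 to 0.342 over all alternatives). That rise was also not called without a filter on low values (adjusted p = 0.0833) or in a fit on the compared groups alone (0.111).

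At the 2-cell stage Zar1 was 30.5 and 31.3 FPKM in the wild-type libraries and 407, 387 and 322 in the deletion libraries (log2 fold change 3.54, SE 0.11, adjusted p = 4.74e-15, 2.57e-15 to 4.66e-04 over all alternatives). This was the largest fold change among the 10 genes at any stage of the deletion comparisons. It was 3.64 without deletion library 3. Wild-type 2-cell embryos kept 4.30% of the zygote level (log2 fold change -4.49), deletion 2-cell embryos 26.3% of theirs (-1.92), and both falls were called under each scaling.

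Zar1l differed from Zar1 in when it was lost, going almost entirely by the zygote stage. It read 209.8, 199 and 191 FPKM in 3-week wild-type oocytes and 7.37, 5.41 and 7.41 in wild-type zygotes, 3.36% of the oocyte level (log2 fold change -4.71, SE 0.23, adjusted p = 4.87e-13). This was the steepest fall of the set at that step. Deletion oocytes had 157, 193 and 172 FPKM at 3 weeks (interval of the log2 fold change -0.70 to 0.29) and 166, 170.4 and 155 at 3 months, against 193, 193 and 184 in the 3-month wild type (interval -0.71 to 0.28). The libraries overlapped at 3 weeks but not at 3 months, and neither difference was called in the fit on all libraries. A fit on the compared groups alone called the 3-month difference lower (-0.21, adjusted p = 0.00835). All genes called at 3 months were then 8547 against 6818. In zygotes of deletion mothers the values were 13.3, 25.6 and 9.04, above all wild-type zygote libraries but far apart among themselves (log2 fold change 1.03, SE 0.23, adjusted p = 0.00114). The call was lost under median-of-ratios scaling (0.49, adjusted p = 0.0809) and after quantile normalization (0.47, 0.0652, 3.22e-05 to 0.0809 over all alternatives). A fit on the compared groups alone lost the zygote call too (adjusted p = 0.0643). In 2-cell embryos Zar1l was 10.2 and 8.29 FPKM in wild-type and 28.0, 16.5 and 19.3 in deletion libraries, again without overlap (log2 fold change 1.09, SE 0.26, adjusted p = 0.00110), and it was called under both other scalings.

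Cpeb1 encodes the protein that binds the cytoplasmic polyadenylation element of stored mRNA, first holding it silent and later recruiting the poly(A) polymerase. Its mRNA was abundant in oocytes and low in every embryo group, and embryos of deletion mothers kept more of it. Wild-type 3-week oocytes had 299, 314 and 297 FPKM and deletion oocytes 242, 249 and 238 (log2 fold change -0.32, SE 0.14, adjusted p = 0.0958). At 3 months the wild type had 363, 359 and 348 and Gdf9-Cre oocytes 277, 295 and 298 (log2 fold change -0.30, SE 0.14, adjusted p = 0.0810). The libraries did not overlap in either pair, but neither difference passed the adjusted threshold as deposited, while both did under median-of-ratios scaling (adjusted p = 0.0183, 0.00331 to 0.209 over all alternatives, at 3 weeks and 0.00188, 0.00144 to 0.189 over all alternatives, at 3 months). Both were also called in fits on the compared groups alone (adjusted p = 0.00331 and 0.00179).

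Wild-type zygotes held 23.7, 27.9 and 22.5 FPKM of Cpeb1, 8.16% of the oocyte mean, and deletion zygotes 39.3, 32.1 and 30.6, 13.99% of theirs. The zygote groups did not overlap (log2 fold change 0.44, SE 0.14, adjusted p = 0.0128), but the direction turned to -0.15 under median-of-ratios scaling. After quantile normalization the difference was 0.066 and not called (adjusted p = 0.723), and the call was also lost without wild-type library 3 (adjusted p = 0.0591) or deletion library 1 (0.0818, 2.02e-04 to 0.723 over all alternatives). In 2-cell embryos the wild-type libraries read 13.03 and 14.1 and the deletion libraries 36.2, 24.1 and 43.0 (log2 fold change 1.25, SE 0.16, adjusted p = 6.89e-07; 1.07 without deletion library 3). From zygote to 2-cell stage Cpeb1 fell in the wild type to 54.8% (-0.82), while the deletion value was 101% of its zygote level (-0.011, not called).

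Dazl, a germ-cell RNA-binding protein that promotes translation of maternal mRNA during meiotic maturation, followed another course. It was at a like level in oocytes and zygotes and low in 2-cell embryos of wild-type mothers. Wild-type 3-week oocytes had 62.4, 65.7 and 59.3 FPKM and wild-type zygotes 54.8, 80.9 and 61.5 (log2 fold change 0.054, SE 0.15, adjusted p = 0.779). That step was called higher under both other scalings (0.95 and 0.38), and lower at -0.35 when 3-month oocytes were the baseline (adjusted p = 0.0451, 3.85e-05 to 0.978 over all alternatives). Deletion oocytes read 51.2, 55.7 and 53.7 FPKM at 3 weeks, each below every wild-type library but not called (log2 fold change -0.22, SE 0.15, adjusted p = 0.305). A fit on the compared groups alone called that 3-week difference lower (adjusted p = 0.0264). At 3 months Gdf9-Cre oocytes read 52.8, 62.5 and 65.0 against 85.5, 86.0 and 77.7 in the wild type (log2 fold change -0.46, SE 0.15, adjusted p = 0.0154), a call lost without Gdf9-Cre library 1 (adjusted p = 0.0793, 2.22e-04 to 0.0793 over all alternatives).

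Zygotes of deletion mothers had 68.7, 74.2 and 72.6 FPKM of Dazl, within the range of the wild-type zygotes (log2 fold change 0.14, SE 0.15, adjusted p = 0.484), but under median-of-ratios scaling the difference was -0.46 and called lower (adjusted p = 0.0292, 0.0292 to 0.941 over all alternatives). At the 2-cell stage wild-type libraries fell to 9.52 and 11.9, 16.3% of the zygote mean (log2 fold change -2.50, SE 0.17, adjusted p = 6.17e-11). Deletion 2-cell libraries read 66.5, 112 and 82.2, each far above both wild-type libraries (log2 fold change 2.88, SE 0.17, adjusted p = 1.80e-11; 2.91 without library 3). Their change from deletion zygotes was 0.24 (adjusted p = 0.192).

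Ybx2 encodes the germ-cell Y-box protein that coats and stabilises much of the oocyte's mRNA. It was lower in deletion oocytes of both models and higher in deletion zygotes. At 3 weeks it read 568, 596 and 589 FPKM in wild-type and 434, 371 and 411 in deletion oocytes (log2 fold change -0.53, SE 0.11, adjusted p = 0.00123). At 3 months it read 501, 468 and 533 and 400.0, 406 and 392 (log2 fold change -0.32, SE 0.11, adjusted p = 0.0198). Wild-type and deletion libraries were fully separated at both ages. The 3-month call was lost without wild-type library 3 (adjusted p = 0.0805), without Gdf9-Cre library 3 (0.0537) and after quantile normalization (0.113, 5.57e-04 to 0.113 over all alternatives).

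Wild-type zygotes had 97.7, 70.6 and 93.6 FPKM of Ybx2, 14.9% of the oocyte mean, and deletion zygotes 211, 188 and 166, 46.5% of theirs. The zygote difference was without overlap (log2 fold change 1.11, SE 0.11, adjusted p = 6.46e-08) and called under both other scalings (0.50 and 0.92). Ybx2 was the member that rose from wild-type zygotes to 2-cell embryos, where it read 252 and 266, 297% of the zygote mean (log2 fold change 1.57, SE 0.12, adjusted p = 5.87e-10), and the rise was called under both scalings. In deletion 2-cell embryos it read 383, 357 and 312, all above the wild type (log2 fold change 0.43, SE 0.12, adjusted p = 0.00442), but this difference was 0.15 under median-of-ratios scaling and it turned to -0.094 after quantile normalization, neither called. It was 0.51 without deletion library 3. In a fit on the compared groups alone the 2-cell difference was not called (adjusted p = 0.0553).

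Lsm14b, an Sm-like protein of oocyte ribonucleoprotein particles, was the member that rose from oocyte to zygote in both genotypes. Wild-type 3-week oocytes had 543, 521 and 584 FPKM and wild-type zygotes 918, 1004 and 902 (log2 fold change 0.78, SE 0.0812, adjusted p = 3.72e-08). Deletion oocytes had 618, 601 and 552 and deletion zygotes 971, 1015 and 909.7 (log2 fold change 0.71, SE 0.0812, adjusted p = 2.09e-07). All zygote libraries lay above all GV libraries, and both rises were called under each scaling. Wild-type and deletion values overlapped at 3 weeks and in zygotes. The 3-week difference was called higher after quantile normalization (0.32, adjusted p = 0.0180, 0.0180 to 0.982 over all alternatives), and the zygote difference was 0.036 as deposited, -0.57 and called lower under median-of-ratios scaling, and 0.33 and called higher after quantile normalization. At 3 months Lsm14b was 527, 571 and 557 FPKM in wild-type and 468, 471 and 505 in Gdf9-Cre oocytes, without overlap but not called (log2 fold change -0.19, SE 0.0812, adjusted p = 0.0535), and called lower under median-of-ratios scaling (-0.44). A fit on the compared groups alone called it lower too (adjusted p = 0.0194).

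By the 2-cell stage Lsm14b had gone from the highest level of the set in wild-type zygotes to 65.9 and 79.4 FPKM, 7.72% of the zygote mean (log2 fold change -3.68, SE 0.0908, adjusted p = 8.17e-17). Deletion 2-cell libraries read 338, 304 and 306, 32.7% of their zygotes. The groups lay far apart (log2 fold change 2.11, SE 0.0908, adjusted p = 2.90e-13; 2.13 without library 3).

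Patl2, an oocyte member of the PAT1 family of translational repressors, was the least abundant of the 10 and was lower in deletion oocytes of both models. Its annotated span overlaps B2m and Trim69, and strand use in counting is not given in the sources used here, so reads of overlapping transcripts cannot be told apart. At 3 weeks it read 30.9, 32.1 and 30.4 FPKM in wild-type and 21.4, 15.2 and 16.0 in deletion oocytes (log2 fold change -0.81, SE 0.16, adjusted p = 9.54e-04). At 3 months it read 26.2, 28.2 and 26.0 and 14.6, 15.3 and 15.6 (log2 fold change -0.78, SE 0.16, adjusted p = 5.79e-04). There was no overlap at either age, and both falls were called under each scaling.

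Zygotes had 6.54, 4.73 and 3.89 FPKM of Patl2 with wild-type mothers and 8.07, 7.91 and 6.20 with deletion mothers, where the ranges overlapped (log2 fold change 0.49, SE 0.16, adjusted p = 0.0184). The direction turned under both other scalings (-0.035 and -0.040), and the call was lost without wild-type library 2 or 3 or deletion library 1 or 2 (adjusted p = 0.0538 to 0.117, 0.00290 to 0.901 over all alternatives). It was also lost in a fit on the compared groups alone (adjusted p = 0.0920). In 2-cell embryos Patl2 was 0.743 and 0.491 in the wild type and 7.27, 4.75 and 4.65 in the deletion (log2 fold change 2.00, SE 0.18, adjusted p = 8.62e-09). The wild-type values lie below 1 FPKM, where the added 1 of the log scale makes a fold change too small. From wild-type zygotes the fall was -1.89 to 12.2%, and from deletion zygotes -0.37 (adjusted p = 0.0639), which was called under median-of-ratios scaling, quantile normalization, a stricter filter and with a replicate block.

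Eif4e1b, an oocyte form of the cap-binding factor eIF4E, showed the largest oocyte effect of the deletion in the set. It stood at less than 50% of the wild-type mean in both oocyte models and stayed lower in zygotes. At 3 weeks it read 886, 884 and 899 FPKM in wild-type and 412, 414 and 429 in deletion oocytes (log2 fold change -1.09, SE 0.11, adjusted p = 1.05e-06). At 3 months it read 854, 872 and 857 and 415, 430.0 and 424 (log2 fold change -1.02, SE 0.11, adjusted p = 6.90e-07). The libraries within each of the 4 groups lay close together and far from the other genotype. Zygotes read 508, 430.0 and 499 with wild-type and 266, 334 and 267 with deletion mothers, without overlap (log2 fold change -0.73, SE 0.11, adjusted p = 2.07e-05), and all 3 falls were called under each scaling.

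At the 2-cell stage the order turned as deposited, with Eif4e1b at 345 and 319 FPKM in wild-type and 478, 482 and 334 in deletion libraries (log2 fold change 0.36, SE 0.13, adjusted p = 0.0179), but the difference was 0.079 and not called under median-of-ratios scaling and -0.12 after quantile normalization. Deletion library 3 lay between the wild-type values, and without it the difference was 0.53. The call was lost without wild-type library 2 (adjusted p = 0.119), deletion library 1 (0.0802) or deletion library 2 (0.0774, 7.12e-05 to 0.657 over all alternatives). A fit on the compared groups alone also lost this call (adjusted p = 0.209). Over the stages, wild-type Eif4e1b went to 53.9% of the oocyte mean in zygotes (-0.90; 0.014 under median-of-ratios scaling) and to 69.3% of the zygote mean in 2-cell embryos (-0.52; 0.13 after quantile normalization). The deletion values were 69.1% and 149%. As the most abundant member of wild-type 2-cell embryos it stood above Ybx2 without overlap.

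Eif4enif1 encodes a protein that binds eIF4E and represses translation of the bound mRNA; its span overlaps Sfi1. Its level differed little between the oocyte groups, and was higher in embryos of deletion mothers as deposited. At 3 weeks it read 232, 247 and 235 FPKM in wild-type and 231, 250.4 and 221 in deletion oocytes (interval of the log2 fold change -0.17 to 0.12). At 3 months it read 228, 232 and 225 and 199, 210.4 and 224 (interval -0.26 to 0.032). The libraries overlapped at 3 weeks and not at 3 months. Neither difference was called as deposited, while the 3-month one was called lower under median-of-ratios scaling (-0.36) and after quantile normalization (-0.23). Zygotes had 171, 161 and 168 with wild-type and 219, 237 and 219 with deletion mothers, without overlap (log2 fold change 0.43, SE 0.0688, adjusted p = 2.89e-05), but the direction turned under median-of-ratios scaling (-0.17, adjusted p = 0.0961, 1.39e-05 to 0.0961 over all alternatives).

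In 2-cell embryos Eif4enif1 was 132 and 117 FPKM in wild-type and 303, 293 and 276 in deletion libraries (log2 fold change 1.22, SE 0.0769, adjusted p = 5.18e-11), a rise called under each scaling and at 1.26 without deletion library 3. The deletion 2-cell libraries were above every GV library of either genotype. From wild-type oocytes to zygotes the change was -0.51 as deposited and 0.39 under median-of-ratios scaling, both called. From deletion oocytes to zygotes it was -0.056 (adjusted p = 0.498) and 0.36, the latter called.

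Pabpc1l encodes the poly(A)-binding protein of oocytes and early embryos. Its mRNA was between 146 and 167 FPKM in all oocyte libraries, low in zygotes, and less low in embryos of deletion mothers. At 3 weeks it read 153, 153 and 146 FPKM in wild-type and 167, 166 and 149 in deletion oocytes (interval of the log2 fold change -0.23 to 0.41). At 3 months it read 149.5, 150.0 and 148 and 152, 155 and 163 (interval -0.25 to 0.39). Neither was called as deposited or under either other scaling, where the 3-month value turned to -0.17 and -0.086. Wild-type zygotes read 25.5, 18.7 and 21.2, 14.5% of the oocyte mean, and deletion zygotes 43.0, 56.4 and 32.1, 27.3% of theirs, without overlap (log2 fold change 0.95, SE 0.15, adjusted p = 3.44e-05). That difference was called under median-of-ratios scaling at 0.37 and after quantile normalization at 0.50. In 2-cell embryos the values were 9.56 and 12.6 and 48.5, 37.6 and 51.2 (log2 fold change 1.95, SE 0.17, adjusted p = 5.93e-09; 1.87 without deletion library 3). Every deletion 2-cell library lay above both wild-type ones, and all zygote and 2-cell libraries lay below all GV libraries.

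Whether the deletion effect itself changed with stage was tested as an interaction in the same limma fit. From 3-week oocytes to zygotes it moved upward for 7 members and downward for 0, against 22.4% and 7.01% of all genes (medians 0.81 and 0.12). After median-of-ratios scaling 3 moved upward, Ybx2, Zar1 and Patl2, and 1 downward, Lsm14b. All genes called were then 4810, with 39.4% of them upward, against 76.1% as deposited. From zygotes to 2-cell embryos it moved upward for 8 and downward for 1, Ybx2, against 21.5% and 32.4% (medians 1.04 and -0.087), and the 8 upward calls, Dazl, Zar1, Lsm14b, Patl2, Eif4e1b, Pabpc1l, Cpeb1 and Eif4enif1, held under both other scalings. Zygotes enter both tests, with opposite sign. Between the 3-month Gdf9-Cre and the 3-week Zp3-Cre oocytes no member differed in its effect by this test, against 3.20% higher and 1.68% lower, and 1, Lsm14b, had an unadjusted p under 0.05 (log2 fold change -0.30, SE 0.11, adjusted p = 0.145). Lsm14b was called with array weights and in a fit on those 4 groups alone, where calls over all genes were 3228 and 2448 against 673.

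Other genes of the same pathway included higher and lower calls in embryos of deletion mothers, as all genes did. These were given as 3 lists: the polyadenylation machinery, with 20 genes tested, repressors and other proteins of ribonucleoprotein particles, with 31, and cap- and poly(A)-tail-binding proteins, with 19. In 2-cell embryos 10, 16 and 7 of them were higher and 7, 8 and 8 lower, with medians of 0.24, 0.26 and -0.15 against 1.60 for the 10 genes, and 37.1% of all genes higher and 29.4% lower. Zygotes had 7, 18 and 8 higher and 2, 6 and 7 lower, against 35.3% and 11.4% of all genes. In 3-week oocytes 3, 8 and 4 were higher and 2, 4 and 4 lower, against 18.3% and 11.3%, and in 3-month oocytes 7, 10 and 4 higher and 3, 7 and 8 lower, against 34.2% and 15.2%. Several of these shares lie near those of all genes, among them the 7 of 19 cap- and tail-binding genes higher in 2-cell embryos and the 7 of 20 polyadenylation genes higher in zygotes. After median-of-ratios scaling the zygote counts were 7, 12 and 1 higher and 10, 9 and 8 lower, and the medians of the polyadenylation and cap lists turned to -0.47 and -0.27. In 2-cell embryos 6, 14 and 3 were then higher and 8, 11 and 8 lower, with the medians of the first and second list at -0.023 and -0.018. Of the 6850 and 9053 genes called in zygotes and 2-cell embryos under that scaling, 40.9% and 45.6% were higher. No test compared these lists with the 10 genes.

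**Figure D5:**
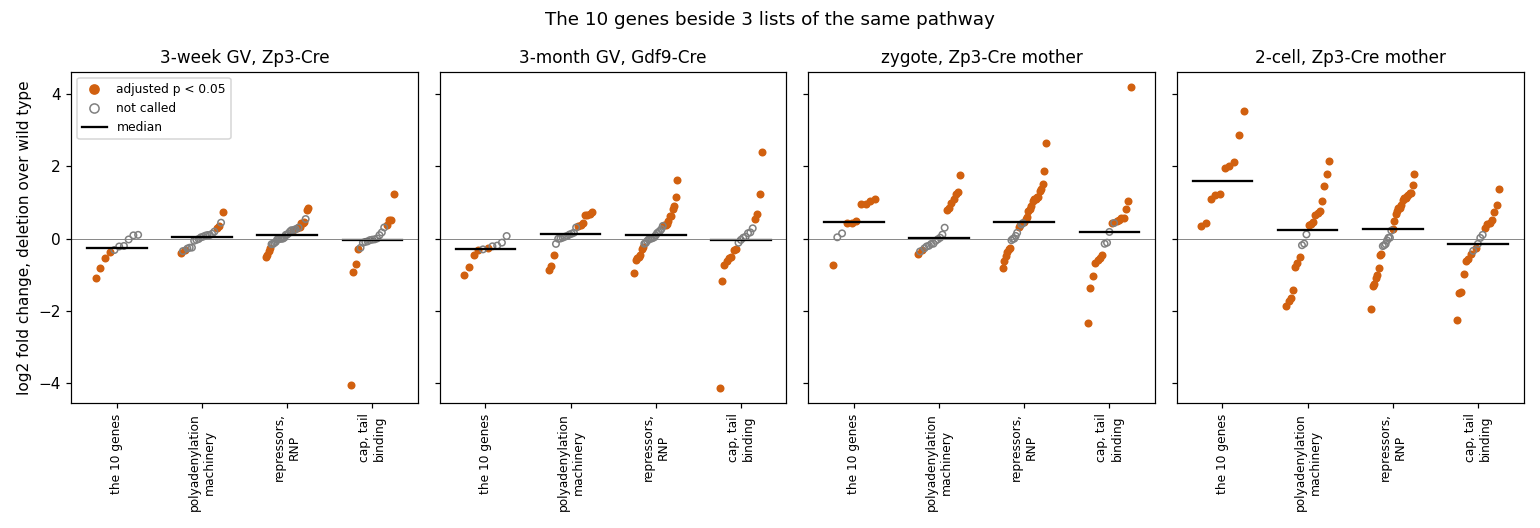
Log2 fold change of the deletion over wild type (y axis) for the 10 genes and for the genes of 3 lists of the same pathway (x axis), in 4 panels by stage. Filled orange points passed an adjusted p of 0.05, open grey points did not, and bars are medians, which in 2-cell embryos were 1.60 for the 10 genes and between -0.15 and 0.26 for the lists.

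Pabpn1l, an oocyte poly(A)-binding protein, had the largest oocyte change of the lists, at 230.5 ± 14.98 FPKM in wild-type and 12.998 ± 1.91 in deletion libraries (log2 fold change -4.06, adjusted p = 6.51e-11) at 3 weeks (SD, n = 3 each) and at 253 ± 1.36 FPKM in wild-type and 13.5 ± 0.963 in deletion libraries (log2 fold change -4.13, adjusted p = 1.91e-11) at 3 months. It was also lower in zygotes, at 63.3 ± 1.76 FPKM in wild-type and 12.03 ± 3.61 in deletion libraries (log2 fold change -2.34, adjusted p = 3.69e-09). Mov10, an RNA helicase of silencing complexes, was higher at 3 weeks, at 5.14 ± 0.820 FPKM in wild-type and 9.60 ± 1.23 in deletion libraries (log2 fold change 0.79, adjusted p = 0.00391), and at 3 months, at 3.62 ± 0.310 FPKM in wild-type and 9.23 ± 1.27 in deletion libraries (log2 fold change 1.14, adjusted p = 6.62e-05). Eif4ebp1, an inhibitor of eIF4E, was higher in deletion oocytes, at 2.51 ± 0.437 FPKM in wild-type and 7.88 ± 3.88 in deletion libraries (log2 fold change 1.22, adjusted p = 0.0287) at 3 weeks, not called after quantile normalization (adjusted p = 0.0522), and at 1.74 ± 0.676 FPKM in wild-type and 13.4 ± 2.56 in deletion libraries (log2 fold change 2.40, adjusted p = 7.83e-05) at 3 months. Cpeb3, a relative of Cpeb1, was lower at 3 weeks, at 14.8 ± 0.833 FPKM in wild-type and 10.9 ± 0.683 in deletion libraries (log2 fold change -0.40, adjusted p = 0.00926), and at 3 months, at 20.9 ± 0.586 FPKM in wild-type and 11.02 ± 1.43 in deletion libraries (log2 fold change -0.87, adjusted p = 3.21e-06). The other named changes in oocytes were Cpsf4 and Patl1, higher at 3 weeks by 0.73 and 0.85 on the log2 scale, Zfp36l2, higher by 1.63 at 3 months, and the poly(A) polymerase gene Papd5, at -0.76 at 3 months.

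In zygotes the steepest rise of the lists was that of Paip2, which keeps poly(A)-binding protein off the tail, at 4.13 ± 0.456 FPKM in wild-type and 94.9 ± 21.5 in deletion libraries (log2 fold change 4.20, adjusted p = 4.83e-16). Fxr2, a relative of the fragile X protein, was higher, at 14.95 ± 1.38 FPKM in wild-type and 99.8 ± 17.1 in deletion libraries (log2 fold change 2.65, adjusted p = 1.12e-14). The granule protein gene Caprin2 and the cleavage factors Cpsf4 and Cpsf3 were higher by 1.51, 1.76 and 1.24. In 2-cell embryos Fip1l1, another cleavage and polyadenylation factor, was higher, at 40.5 ± 1.02 FPKM in wild-type and 185 ± 41.9 in deletion libraries (log2 fold change 2.14, adjusted p = 2.62e-11) (SD, n = 2 and 3) and the double-stranded RNA-binding gene Stau2 rose by 1.78. The somatic-type poly(A)-binding gene Pabpc1 was lower, at 120.2 ± 11.9 FPKM in wild-type and 30.8 ± 27.0 in deletion libraries (log2 fold change -2.24, adjusted p = 1.82e-05), opposite to its relative Pabpc1l, with a spread in the deletion libraries almost as large as their mean. Eif4e2, Cpsf1 and Khdrbs1 fell by 1.51, 1.88 and 1.96 on the log2 scale.

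The 10 genes fell into patterns over the 8 group means. Cpeb1, Zar1l and Pabpc1l were most alike, with Pearson correlations of log2 levels of 0.982 for Cpeb1 with Zar1l, 0.970 for Cpeb1 with Pabpc1l and 0.955 for Pabpc1l with Zar1l. Zar1 was closest to Lsm14b, at 0.910. The least alike pair was Ybx2 and Lsm14b, at -0.203. Among 7564 other genes the 2 closest to Zar1 were Kcnk13 (0.997) and Spata7 (0.993), to Zar1l Pdlim2 (0.998) and Cpsf4l (0.996), to Cpeb1 Izumo1r (0.995) and Top3b (0.994), and to Dazl Mastl (0.990) and Armc10 (0.977). Ybx2 was most like Vps9d1 (0.991) and Epc1 (0.991), Lsm14b like Tm9sf2 (0.989) and Zfp60 (0.988), and Patl2 like Fbxw16 (0.995) and Rspo2 (0.995). For Eif4e1b they were Sgsm2 (0.981) and Hsd3b7 (0.953), for Eif4enif1 Ints10 (0.972) and Map3k5 (0.965), and for Pabpc1l Actr8 (0.996) and Aim1 (0.995). These correlations describe 8 points that share libraries, stages and scaling, and carry no test.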

How the data were processed

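RNA of GV oocytes, zygotes and 2-cell embryos was purified (RNeasy micro kit) and made into libraries (NEBNext Ultra RNA kit), per the labels' protocols. The authors deposited FPKM per gene, 1 value for each of 23 libraries. The submitters' processing notes name CASAVA 1.4, TopHat2 2.0.12, Cufflinks 2.2.1 and SAMtools, and the builds mm9 and mm10 without saying which was used for RNA. Use of strand, the annotation and any poly(A) selection are not given in these labels and headers. The bisulfite tools those notes name were not used here. Counts were not used, so absolute depth is unknown; relative depth was estimated from the steps between low values.

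Libraries were grouped by genotype, stage and age from the labels. Values were taken as log2(FPKM + 1), so fold changes understate those of low genes. A gene was kept where 2 or more libraries reached an FPKM of 1. A single limma 3.58.1 model (R 4.3.3) with 8 group means, a variance trend and 15 residual degrees of freedom gave every comparison, and Benjamini-Hochberg adjustment ran over all 13776 genes in each, with calls at an adjusted p under 0.05. All groups thus shared the estimate of spread. Replicates correlated at 0.991 to 0.993 in 3-week wild-type oocytes and at 0.936 to 0.983 in deletion 2-cell embryos. The shared spread may therefore be too small for the 2-cell comparisons. On simulated data of that size 30% of genes changed by 0.5 and 78% of those changed by 1 on the log2 scale were recovered in the 3-week deletion comparison, and 3.57% of calls were false. That simulation had normally distributed noise and changed far fewer genes than the 4081 called in the measured comparison. Its rates therefore check the fit and do not give the rates of the measured data.

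The members and the lists were chosen with earlier results of these data known. The genes named are all 10 members and Cxxc1, from each pathway list and deletion comparison at most 2 called genes of largest fold change with a mean FPKM of at least 5, and for each member the 2 other genes most correlated with it over the 8 group means. Alternatives were median-of-ratios scaling, quantile normalization, a pseudocount of 0.1, no filter, a minimum FPKM of 5 in 3 libraries, array weights, a replicate block, fits on the compared groups alone, a 3-month oocyte baseline, levels scaled to the mean library total, and leaving out each library. Promoter windows came from RefSeq, GRCm38.p6. Replicates of a group correlated at 0.936 to 0.993 and no libraries were duplicates.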

Additional observations from a re-analysis of the deposited data

Results flagged for a closer look

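The deletion effect differed between stages for 7 of the 10 genes from 3-week GV oocytes to zygotes and for 9 from zygotes to 2-cell embryos, by the interaction test in limma with Benjamini-Hochberg adjustment over all genes. Of all genes 22.4% moved upward and 7.01% downward in the first test, and 21.5% and 32.4% in the second. The values below are differences between log2 fold changes.

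Between oocytes and zygotes the effect moved upward by 1.64 for Ybx2, 1.34 for Zar1, 1.29 for Patl2, 1.23 for Zar1l, 0.86 for Pabpc1l, 0.76 for Cpeb1 and 0.46 for Eif4enif1. The adjusted p ran from 1.14e-07 for Ybx2 to 0.00780 for Zar1l. Ybx2, Zar1 and Patl2 held their call under both other scalings.

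Between zygotes and 2-cell embryos the effect moved upward by 2.74 for Dazl, 2.57 for Zar1, 2.07 for Lsm14b, 1.51 for Patl2, 1.09 for Eif4e1b, 1.00 for Pabpc1l, 0.81 for Cpeb1 and 0.79 for Eif4enif1. It moved by -0.68 for Ybx2, which lost its call under median-of-ratios scaling (-0.35, adjusted p = 0.0969, 5.77e-05 to 0.0969 over all alternatives). The zygote effect enters both sets of values with opposite sign, so they are not independent.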

How the results depend on the processing

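Directions turned mainly under median-of-ratios scaling. There the deletion difference in zygotes became -0.15 for Cpeb1, -0.46 for Dazl, -0.17 for Eif4enif1, -0.57 for Lsm14b and -0.035 for Patl2. The step from wild-type oocytes to zygotes became 0.014 for Eif4e1b and 0.39 for Eif4enif1, and for Eif4enif1 the deletion step became 0.36 and the interaction -0.039. Quantile normalization turned Patl2 in zygotes to -0.040, Eif4e1b and Ybx2 in 2-cell embryos to -0.12 and -0.094, and the wild-type step of Eif4e1b to 2-cell embryos to 0.13. With 3-month oocytes as baseline Dazl changed by -0.35 to zygotes. The cause was not tested.

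The count of members called in 3-month deletion oocytes was 5, and 8 under median-of-ratios scaling, array weights and a fit on the compared groups alone, where calls over all genes went from 6818 to 5920, 9140 and 8547. The age comparison went from 0 to 1, 3 and 4 (quantile normalization, array weights, compared groups alone) while calls over all genes went from 544 to 550, 3246 and 2482, the oocyte-to-zygote interaction from 7 to 4 under median-of-ratios scaling (all calls 4050 to 4810), and the comparison of the models from 0 to 1 with array weights and with compared groups alone, as all calls went from 673 to 3228 and 2448. Leaving out 1 library gave 3 to 5 calls in 3-month oocytes (3 without wild-type library 3), 4 in 3-week oocytes, 6 to 8 in zygotes, 9 to 10 in 2-cell embryos, 9 at each wild-type step, 7 to 9 and 5 to 7 at the deletion steps, 0 for age, and 7, 9 and 0 for the interactions. All genes called were then 5877 to 6176 in 3-month oocytes (6818 with every library) and 3095 to 3540 in 3-week oocytes (4081). They were 5815 to 6080 in zygotes (6431) and 8155 to 9441 in 2-cell embryos (9159). At the wild-type steps they were 9258 to 9305 (9659) and 8732 to 9226 (9441), and at the deletion steps 8283 to 8645 (8937) and 5900 to 7407 (6887). For age they were 265 to 318 (544). Of the single calls, leaving out a library kept 496 and ended 22, and other alternatives kept 573, ended 26 and turned 10. Scaling to the mean library total changed group means by -10.9% to 19.9%.

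The labels do not say what a replicate number marks, and same-numbered libraries showed little shared deviation. Over 11 same-numbered pairs the correlation of deviations from group means lay between -0.069 and 0.058. With 2 or 3 libraries in a group such deviations are tied to each other, so these correlations cannot decide whether the samples were paired. With a replicate block no member count moved beyond 1.5 times, and Patl2 from deletion zygotes to 2-cell embryos became called (-0.37, adjusted p = 0.0320, 0.00666 to 0.570 over all alternatives). Patl2 lay below 1 FPKM in wild-type 2-cell embryos, at 0.743 and 0.491 in libraries of relative depth 0.678 and 1.17. Whether depth limits these values was not tested.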

Other observations

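Genes of the wider pathway included risers and fallers at each wild-type step. From wild-type oocytes to zygotes 7 of 20 polyadenylation genes rose and 11 fell (median log2 fold change -0.61), 8 of 31 repressors and ribonucleoprotein genes rose and 15 fell (-0.26), and 8 of 19 cap- and tail-binding genes rose and 9 fell (0.030), against a median of -1.77 for the 10 genes. Of all genes 19.4% rose and 50.7% fell at that step, near the share of each list that fell. From zygotes to 2-cell embryos 7, 18 and 9 rose and 9, 9 and 6 fell, with medians of -0.043, 0.52 and 0.35 against -0.87, and 44.5% of all genes rose and 24.0% fell. No test compared the lists with each other or with the 10 genes.

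In deletion embryos 8, 13 and 9 of the lists' genes rose from oocyte to zygote and 8, 13 and 6 fell (all genes 21.9% and 43.0%), and from zygote to 2-cell embryo 5, 13 and 4 rose and 4, 7 and 5 fell (all genes 32.7% and 17.3%). Between 3-week and 3-month wild-type oocytes 2, 3 and 1 were higher and 0, 0 and 1 lower at 3 months (all genes 2.25% and 1.70%).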
